A study of Mus musculus with 6 samples.

Results

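Aquaporins are membrane channels that let water, and in some members glycerol, hydrogen peroxide or ammonia, cross a cell layer. Genes were chosen by name alone: the 8 aquaporin genes Aqp1, Aqp3, Aqp4, Aqp5, Aqp7, Aqp8, Aqp9 and Aqp11, out of 55487 genes in the count files, and all 8 were found. Of these, 5 had enough counts to be tested and 3 (Aqp5, Aqp7 and Aqp9) did not. The data are bulk RNA-seq of polyadenylated RNA from isolated colonic crypt cells of C57BL/6 mice aged 4 weeks. Mutant libraries (3) came from mice with the genotype M14(f/f);Villin-Cre, and control libraries (3) from mice with M14(f/f) alone, so all 6 libraries came from mice with the flanked alleles, and only those of mutants from mice with Cre. Villin-Cre acts in the gut epithelium and not in the other cells of a crypt preparation. M14 is read here as Mettl14, whose protein forms the N6-methyladenosine (m6A) writer on RNA together with Mettl3. The comparison asks which transcripts differ between these genotypes. How far the writer was lost was not measured, as neither its protein nor m6A was assayed. Because Cre is present in mutants only, its own effects and those of the deletion cannot be told apart.

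In the colon, water follows absorbed and secreted salt, mostly across the surface epithelium, and aquaporins set how easily it passes through cells. Aqp8 is known as a channel of absorptive colonocytes that also carries ammonia and hydrogen peroxide. Aqp4 is the basolateral water channel of several epithelia and of astrocytes, and Aqp1 is the constitutive water channel of red cells, capillary endothelium and kidney tubules. Aqp3, Aqp7 and Aqp9 also pass glycerol, and Aqp11 is an unorthodox member that sits largely in the endoplasmic reticulum.

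Library totals were 26188638, 24181631 and 34842591 counts in mutants, and 32165546 to 35183636 in controls. Mettl14 stood at 14.0, 13.8 and 10.5 CPM (counts scaled to library size by TMM) in mutants, against 26.2, 20.9 and 22.0 CPM in controls. This is -0.85 ± 0.13 as a log2 fold change with its SE (mutant over control, adjusted p = 0.000229 by the quasi-likelihood test of edgeR). Mettl14 RNA thus remained at 55.3% of its control level. Against a null hypothesis of a 1.5-fold change it did not pass (adjusted p = 0.0514 by edgeR). The epithelial markers Epcam and Cdh1 averaged 1621 ± 186 and 1666 ± 79.5 CPM in mutants, and 2180 ± 101 and 1413 ± 26.4 CPM in controls (SD, n = 3 each). Both groups thus held epithelium as labelled, but Epcam was lower in mutants (adjusted p = 0.00499 by edgeR) and Cdh1 higher (0.0363). Of 10 pan-epithelial markers 4 fell, 1 rose and 5 had no call, where 23.0% of all tested genes fell. Their sums were 11000 to 12971 CPM in mutants and 13638 to 15451 CPM in controls. The part of this difference in the aquaporin values was not tested. Mutant 1 and mutant 2 stood apart in sex-linked genes: Xist had 16870, 1328 and 55 counts in mutant 1, 2 and 3, against 44 to 55 in controls, and Ddx3y had 14, 949 and 1615 counts, against 1774 to 1969. The controls and mutant 3 thus held mainly Ddx3y, mutant 1 mainly Xist, and mutant 2 both. The labels give no sex and do not say whether a library pools animals, and the part of sex in the aquaporin values was not tested. Values without mutant 1 and mutant 2 are therefore given for each aquaporin that changed. That setting leaves 1 mutant library, mutant 3, so its p-values take their spread from the 3 controls alone and assume that mutants vary as controls do. Mutant 1 also had the highest share of counts on a ribosomal RNA row (12.9%, against 5.16% to 8.90% in the other libraries). The design names mice in pairs without saying that each library is 1 mouse, so p-values measure only the spread between these libraries, which may be partly technical. No label says which mutant goes with which control, so the reported fit has no term for pairs.

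Of the 5 tested aquaporins, 2 fell in mutants, none rose and 3 did not pass an adjusted p of 0.05. Aqp11 fell to 36.6% of its control level and Aqp1 to 61.6%. Across all 18539 tested genes, 46.5% passed the same threshold, 23.5% higher and 23.0% lower in mutants. The 2 of 5 is near that background and is no result about the family as a whole. The median log2 fold change was -0.50 over the 5 tested aquaporins and 0.0063 over all tested genes. Aqp8, the most abundant member per length though below Aqp4 in CPM, varied so widely within each genotype that no difference could be called.

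**Figure D1:**
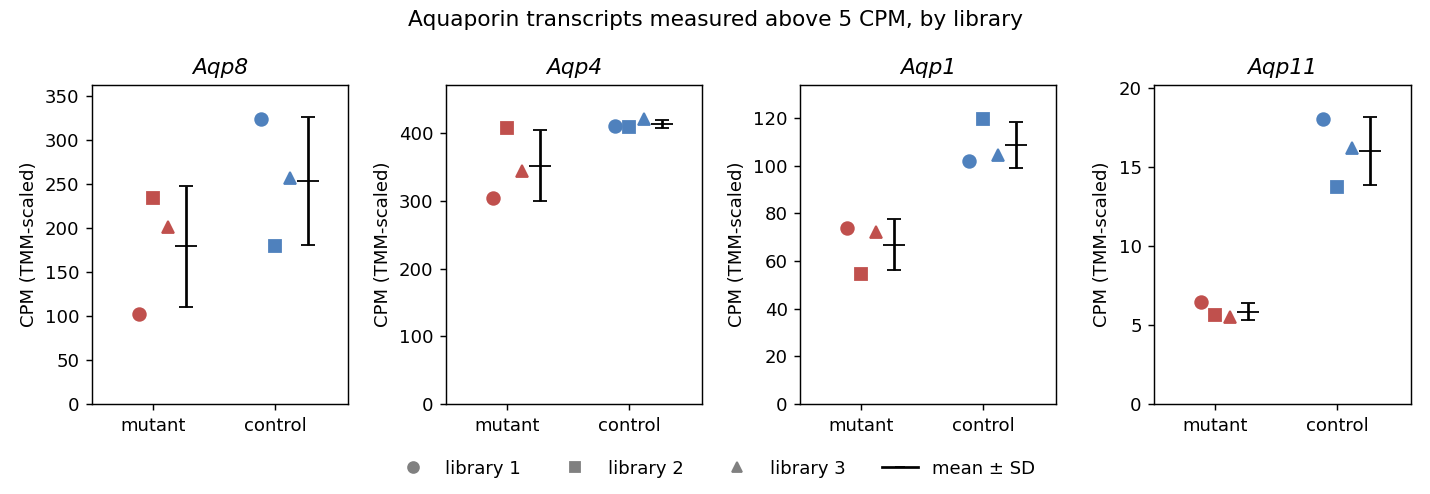
TMM-scaled CPM of the 4 aquaporins above 5 CPM (vertical axes, linear from 0) in mutant and control libraries; each symbol is 1 library and black bars are mean ± SD over 3 libraries. The groups are apart for Aqp11 (5.50 to 6.46 CPM in mutants, 13.7 to 18.0 CPM in controls) and Aqp1, lie close together for Aqp4, and overlap for Aqp8.

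Aqp11 was the member with the clearest change. This gene (ENSMUSG00000042797.9) lies on the minus strand of chromosome 7, at 97724006 to 97738289 on GRCm38, and mice without its protein are known to develop kidney cysts. Its level was 6.46, 5.60 and 5.50 CPM in mutants, against 18.0, 13.7 and 16.2 CPM in controls. Every mutant library was far below every control. As a log2 fold change this was -1.45 ± 0.13 (SE), with a 95% interval of -1.74 to -1.16 (adjusted p = 5.16e-06 by edgeR), and -1.57 for mutant 3 alone against the controls (adjusted p = 6.28e-05 by edgeR, spread from controls only). The coefficient of variation was 8.98% in mutants, where the median was 13.1% over 1643 genes of similar level, and 13.4% in controls, where the median was 7.25% over 2420 genes.

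Aqp1 was the other member that fell. It lies on the plus strand of chromosome 6, at 55336432 to 55348555 (ENSMUSG00000004655.5). Mutant libraries held 73.9, 54.5 and 72.3 CPM, against 102, 120 and 105 CPM in controls. The groups did not overlap, and mutant 2 was the lowest library. Its log2 fold change of -0.70 ± 0.12 (SE) had a 95% interval of -0.96 to -0.44 (adjusted p = 0.000679 by edgeR), and the value was -0.62 for mutant 3 alone against the controls (adjusted p = 0.0013 by edgeR, spread from controls only). Against a null hypothesis of a 1.5-fold change, Aqp11 still passed and Aqp1 did not (adjusted p = 0.268 by edgeR).

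Aqp1 is also a channel of blood vessels and red cells, so their markers were set beside it. Over the 12 endothelial markers the summed level was 22.6 to 25.8 CPM in mutants and 16.2 to 17.3 CPM in controls. Of 11 tested, Vwf and Pecam1 rose, Emcn fell and 8 did not pass, where 46.5% of all tested genes passed. The median log2 fold change of these 11 was -0.34, opposite in sign to the difference of the sums. Pecam1, an adhesion molecule of endothelium and platelets, stood at 11.6, 9.76 and 10.7 CPM in mutants, against 6.33, 4.36 and 5.94 CPM in controls, and the endothelial cadherin gene Cdh5 was below 1 CPM in every library. The 7 erythroid markers found summed to 7.66 to 29.7 CPM in mutants and 6.44 to 11.01 CPM in controls. The part of these cells in the Aqp1 values was not tested. In bulk RNA, fewer cells of a type and less RNA per cell cannot be told apart, for Aqp1 and for the other members.

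The promoters of both genes that fell are shown with that of Aqp8, the most abundant member per length, to set their base composition and core motifs side by side. Each runs from 250 bases before to 50 after a RefSeq transcription start on GRCm38.p6, 5′ to 3′ on the gene's strand, and 7 of the 8 genes matched the RefSeq table. Capitals mark matches on either strand to the TATA box TATAAA, the CCAAT box, the GC box GGGCGG or the pattern TTTATNG; these overlap nowhere in the windows shown.
Aqp11, chr7:97738198-97738497, minus strand: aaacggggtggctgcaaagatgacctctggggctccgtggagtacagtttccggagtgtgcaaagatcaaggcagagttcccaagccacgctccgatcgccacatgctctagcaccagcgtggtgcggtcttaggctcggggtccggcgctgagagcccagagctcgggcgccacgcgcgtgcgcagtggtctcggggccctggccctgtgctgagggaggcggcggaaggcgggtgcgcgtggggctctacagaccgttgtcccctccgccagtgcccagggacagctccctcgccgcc
Aqp1, chr6:55336049-55336348, plus strand: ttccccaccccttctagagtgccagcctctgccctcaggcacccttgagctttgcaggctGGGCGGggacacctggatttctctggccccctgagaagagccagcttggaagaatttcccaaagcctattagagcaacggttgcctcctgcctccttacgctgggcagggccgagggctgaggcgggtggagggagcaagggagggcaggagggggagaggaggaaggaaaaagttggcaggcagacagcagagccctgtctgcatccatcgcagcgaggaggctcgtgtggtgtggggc
Aqp8, chr7:123462044-123462343, plus strand: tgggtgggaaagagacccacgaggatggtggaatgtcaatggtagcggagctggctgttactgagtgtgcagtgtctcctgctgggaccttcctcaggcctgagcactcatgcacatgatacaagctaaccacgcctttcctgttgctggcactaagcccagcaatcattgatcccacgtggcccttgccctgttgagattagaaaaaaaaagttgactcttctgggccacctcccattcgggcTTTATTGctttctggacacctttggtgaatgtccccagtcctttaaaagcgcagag

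The 3 promoters differed in composition. GC content was 68.0% for Aqp11, 62.7% for Aqp1 and 52.0% for Aqp8, where the median of 32851 promoters of the same length was 52.7%. The Aqp11 window held 27 CG dinucleotides, the Aqp1 window 8 and the Aqp8 window 6, with a median of 7 over all promoters. The GC box GGGCGG was present once for Aqp1, at position -190 from the start, and is found in 35.7% of promoters. TTTATNG, letters that CDX and posterior HOX factors are known to bind, was present once for Aqp8, at position -6, and is found in 10.9% of promoters. That pattern was added after the sequences and the values of Hox genes below had been seen, so its match in Aqp8 is a description and no test. TATAAA (13.6% of promoters) and CCAAT (37.4%) were not in these 3 windows, and Aqp11 matched none of the 4 patterns.

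The writer that Mettl14 belongs to prefers GGACT among the sequences it methylates, so this motif was searched in 1 coding transcript per gene of GENCODE vM21, on the transcript strand. That transcript was the longest one tagged as the principal form, or the longest coding one where none had the tag. Windows of 25 bases are shown for Aqp1 and Aqp8, and, as examples, for 3 of the 7 sites of Aqp11, both in the coding part and the first after it, with GGACT in capitals.
Aqp11, coding part, transcript position 512: tgagcgagcaGGACTctgcgcaccc
Aqp11, coding part, transcript position 532: caccccacctGGACTctgacactga
Aqp11, 3′ UTR, transcript position 1248: tttactacctGGACTtcaaattact
Aqp1, 3′ UTR, transcript position 2394: tcaatgacgtGGACTcctctcacct
Aqp8, coding part, transcript position 825: ctggctactgGGACTtccattggat
Aqp8, coding part, transcript position 877: cctctttgtaGGACTgctcattagg

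Aqp11 held 7 GGACT sites in 3737 bases, or 1.87 per kilobase, more than in 85.4% of 21901 transcripts. Its site at position 1248 begins 130 bases after the stop codon. Aqp1, which fell too, held 1 site in 2627 bases (0.381 per kilobase, more than in 17.2% of transcripts), and that site begins 1525 bases after the stop codon. Aqp8 held 2 in 1487 bases (1.34 per kilobase) and Aqp4 held 6 in 5054 bases (1.19 per kilobase). At least 1 site was present in 87.3% of all transcripts, with a median of 1.01 per kilobase. The motif is a match of letters, and these libraries do not measure m6A.

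Aqp4 and Aqp8 did not pass the test. Aqp4 (ENSMUSG00000024411.11, minus strand of chromosome 18, 15389496 to 15410982) stood at 304, 408 and 344 CPM in mutants, against 410, 410 and 421 CPM in controls. All mutants were below all controls, but mutant 2 was only just so, and the controls were almost equal, with a coefficient of variation of 1.47% where the median was 5.21% over 345 genes of similar level. As a log2 fold change this was -0.23 ± 0.10 (SE), with a 95% interval of -0.45 to -0.013 (adjusted p = 0.0775 by edgeR). That call depended on mutant 2 and on the tool: without mutant 2 the log2 fold change was -0.36 (adjusted p = 0.0118 by edgeR), for mutant 3 alone, with spread from the nearly equal controls only, it was -0.30 (adjusted p = 0.0423 by edgeR), and DESeq2 gave -0.26 (adjusted p = 0.0461). When genes of low count were kept in the fit, edgeR also called it (adjusted p = 0.00488). That fit gave far smaller adjusted p-values for other members from the same libraries. For Aqp1 it gave 5.96e-17 by edgeR, against 0.000679 in the reported fit. Its p-values therefore cannot be set beside those of the reported fit, here or below. Of the 5 tested members, Aqp11, Aqp1 and Aqp4 had group ranges that did not overlap, all 3 lower in mutants. Such separation was found for 56.9% of all tested genes, and for 28.2% with mutants lower.

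Aqp8 (ENSMUSG00000030762.11, plus strand of chromosome 7, 123462291 to 123468004) stood at 103, 234 and 201 CPM in mutants, against 324, 180 and 257 CPM in controls. Mutant 1 was the lowest library and control 1 the highest, and mutant 2 and mutant 3 were both above control 2. As a log2 fold change this was -0.50 ± 0.40 (SE; adjusted p = 0.378 by edgeR). Its 95% interval ran from -1.58 to 0.58, so these libraries leave both a lower and a higher level in mutants possible. Mutant 1, lowest here and for Aqp4, was also the library with the highest ribosomal RNA share; the part of that share in these values was not tested. Without mutant 1 the log2 fold change was -0.23, and for mutant 3 alone against the controls it was -0.36. The coefficient of variation was 38.2% in mutants and 28.5% in controls, more than in 98.9% of 1067 and 99.2% of 741 genes of similar level.

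The colonocyte marker Car4, a membrane carbonic anhydrase, stood at 242, 643 and 431 CPM in mutants, against 510, 599 and 589 CPM in controls. It was lowest in mutant 1, as Aqp8 was, but among controls it was lowest in control 1, where Aqp8 was highest. It did not pass the test (adjusted p = 0.486 by edgeR). Of the 14 colonocyte markers, all tested, 5 fell, 1 rose and 8 did not pass. The share that passed was near the 46.5% of all tested genes. Car1, a cytosolic carbonic anhydrase, fell to 2076 ± 273 CPM in mutants, against 5613 ± 518 CPM in controls (SD, n = 3 each, log2 fold change -1.43, adjusted p = 3.00e-06 by edgeR). Summed over the list, the level was 6970, 9902 and 8880 CPM in mutants, against 14506, 14477 and 15330 CPM in controls. The part of these cells in the aquaporin values was not tested.

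**Figure D2:**
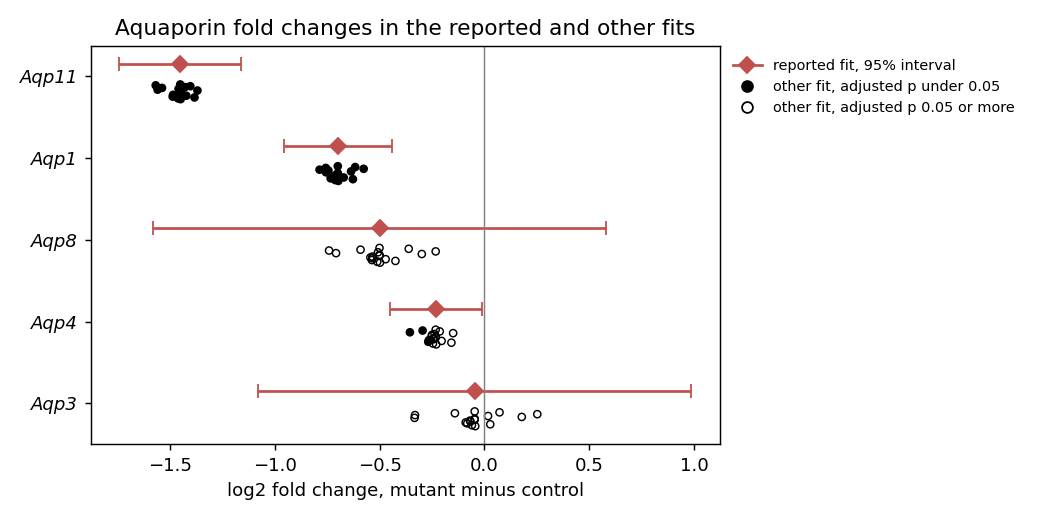
Log2 fold change, mutant minus control (horizontal axis), for the 5 tested aquaporins; red diamonds and bars are the reported fit with its 95% interval, and circles are other fits, filled where the adjusted p is under 0.05. Aqp11 lies at -1.45 and Aqp1 at -0.70 with nearly all circles filled, Aqp4 has filled and open circles, and Aqp8 and Aqp3 have open circles only.

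Levels of different genes were compared per length, as TPM (counts divided by length, on a common total), from the counts and the exon length in the files. In all 6 libraries the order was Aqp8, Aqp4, Aqp1, Aqp11 and Aqp3. Aqp8 averaged 303 ± 129 TPM in mutants and 420 ± 133 TPM in controls (SD, n = 3 each). Aqp4 averaged 149 ± 29.3 TPM in mutants and 173 ± 5.40 TPM in controls, and Aqp1 averaged 66.8 ± 10.1 TPM in mutants and 108 ± 7.35 TPM in controls. Within each library Aqp8 exceeded Aqp4, with a ratio of their TPM of 1.33, 2.26 and 2.31 in mutants, against 3.11, 1.73 and 2.41 in controls. Across libraries their ranges overlapped in mutants, where Aqp8 ran down to 157 TPM and Aqp4 up to 177 TPM, and not in controls, where the lowest Aqp8 level was 290 TPM and the highest of Aqp4 was 178 TPM. Aqp4 was above Aqp1 in every library.

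Aqp8 made up 56.2% ± 9.49 of the summed TPM of the 8 genes in mutants and 58.6% ± 7.88 in controls, and Aqp4 made up 29.4% ± 4.23 in mutants and 25.0% ± 3.94 in controls. For both genes the shares of the groups overlapped. The difference was below either SD for Aqp8 and slightly above either SD for Aqp4. Aqp11 made up 0.336% ± 0.125 in mutants and 0.630% ± 0.0153 in controls. Its length of 9418 bases takes in all annotated exons, and the coding transcript searched for GGACT has 3737 bases, so its TPM depends on which of them is used. The summed TPM of the family was 347, 635 and 584 in mutants, against 844, 578 and 697 in controls. These sums overlapped, with mutant 2 and mutant 3 above control 2.

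**Figure D3:**
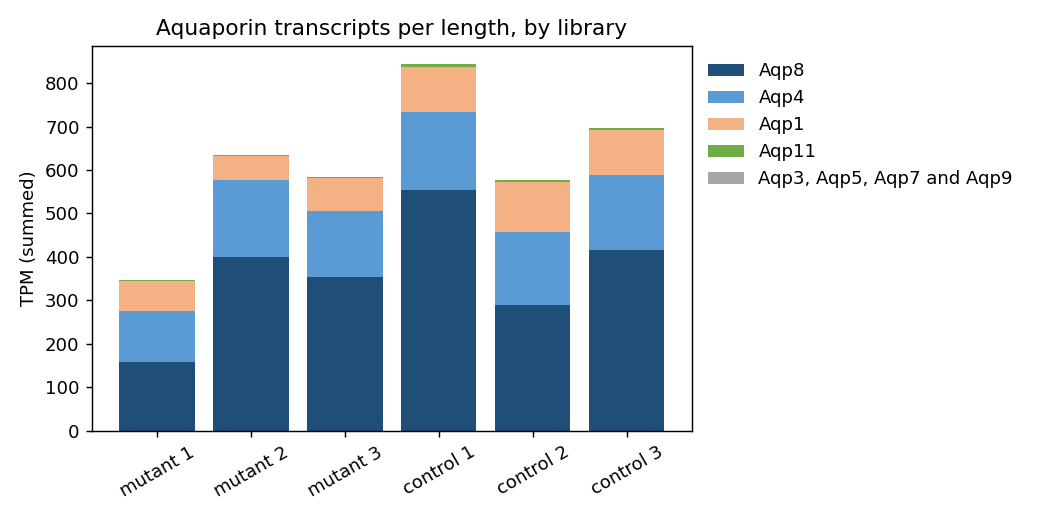
Summed TPM of the 8 aquaporins (vertical axis, linear from 0) in each library, stacked by gene. Aqp8, Aqp4 and Aqp1 fill nearly the whole of each bar; mutant 1 has the lowest bar (347 TPM) and control 1 the highest (844 TPM), mainly through Aqp8.

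The glycerol-carrying members were scarce. Aqp3, the basolateral channel of kidney collecting duct and skin (ENSMUSG00000028435.8, minus strand of chromosome 4, 41092722 to 41098183), had 15, 5 and 17 counts in mutants, against 9, 19 and 15 in controls. The groups overlapped fully. It was tested at 0.415 ± 0.195 CPM in mutants and 0.435 ± 0.159 CPM in controls (SD, n = 3 each), and its log2 fold change of -0.047 (SE 0.47, 95% interval -1.08 to 0.99, adjusted p = 0.947 by edgeR) changed sign with the scaling and with the libraries used.

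Aqp7, the channel by which fat cells release glycerol (ENSMUSG00000028427.13, minus strand of chromosome 4, 41033074 to 41048139), lies near Aqp3 on the same strand. It had 4, 5 and 2 counts in mutants, against 0, 1 and 4 in controls. The groups overlapped, and no library was more than 2 counts above the floor, since a count of 0 allows up to 3 counts, or 0.0861 to 0.124 CPM in mutants and 0.0853 to 0.0933 CPM in controls (counting error only). The fat cell gene Adipoq had at most 0.0773 CPM in a mutant and 0.0297 CPM in a control.

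Aqp9, a channel of liver cells and white blood cells (ENSMUSG00000032204.13, minus strand of chromosome 9, 71110659 to 71168682), had 3, 7 and 11 counts in mutants, against 3, 0 and 2 in controls. In CPM, all mutants (0.116, 0.280 and 0.301) were above all controls (0.0856, 0 and 0.0645), though several of these lie at or near the floor. The filter on low counts left it untested. It entered without the filter, with a log2 fold change of 2.11 (adjusted p = 0.0681 by edgeR, not comparable with the reported fit). Of the 5 settings in which it could be tested it passed in 1, without mutant 1 (2.44, adjusted p = 0.0287 by edgeR). Neutrophil markers were higher in the same libraries: S100a8 stood at 0.734, 2.96 and 2.87 CPM in mutants, against 0.0285, 0.0594 and 0 CPM in controls, and of 6 tested neutrophil markers 3 rose and none fell. The 12 neutrophil markers summed to 13.95, 41.2 and 35.3 CPM in mutants, against 9.76, 13.95 and 11.6 CPM in controls, with mutant 1 level with control 2. S100a8, S100a9 and Csf3r, the markers that rose, averaged 2.19, 1.03 and 0.915 CPM in mutants. Most of each sum thus came from markers that had no call or were not tested. Of 12 macrophage and dendritic cell markers 10 rose and 1 fell, with sums of 43.7 to 66.7 CPM in mutants and 18.8 to 25.3 CPM in controls. Among all tested genes, 23.5% rose and 23.0% fell. The part of these cells in the Aqp9 counts was not tested.

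Aqp5, the water channel of salivary and lacrimal glands (ENSMUSG00000044217.17, plus strand of chromosome 15, 99590782 to 99594829), had 3, 4 and 5 counts in mutants, against 1, 1 and 2 in controls. Mutants were above controls in CPM (0.116 to 0.160 against 0.0285 to 0.0645), but no library held more than 5 counts, and the gene was not tested. Kept in the fit without the filter, it came to 1.64 ± 1.07 (log2 fold change with SE; adjusted p = 0.329 by edgeR). The gastric gland mucin Muc6, made in pyloric glands that are known to make Aqp5, rose in the same libraries to 48.4 ± 5.06 CPM in mutants, against 2.96 ± 1.08 CPM in controls (log2 fold change 4.03, adjusted p = 1.66e-05 by edgeR). Of the 3 tested markers of that list, Muc6 and Tff1 rose, where 23.5% of all tested genes did. The list summed to 46.9 to 56.9 CPM in mutants and 4.96 to 5.52 CPM in controls, in mutants nearly all of it Muc6. Tff1 averaged 0.688 CPM in mutants. Another 6 were not tested, among them Muc5ac, whose groups overlapped at 0.232 to 0.438 CPM in mutants and 0 to 0.314 CPM in controls. The part of this list in the Aqp5 counts was not tested.

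**Figure D4:**
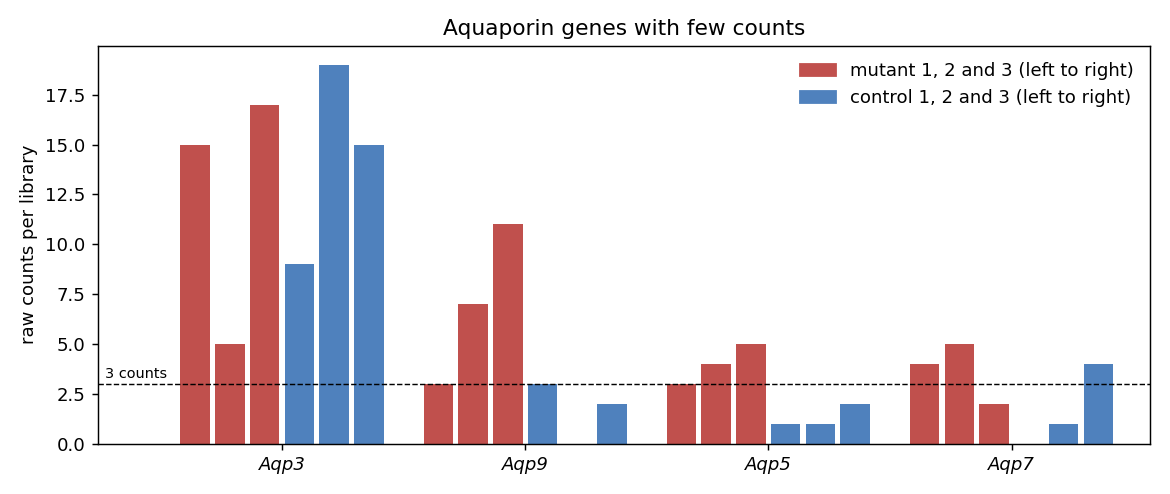
Raw counts per library (vertical axis, linear from 0) of the 4 scarce aquaporins, mutant libraries in red left of control libraries in blue; the dashed line marks 3 counts, the number that a count of 0 allows. Aqp3 overlaps between groups at 5 to 19 counts, and Aqp9, Aqp5 and Aqp7 lie near the line.

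To place the members among other transcripts, the 3 genes with the most similar profile were found for each aquaporin above 1 CPM. Similarity was the root mean square difference of log2 CPM, each gene centred on its mean over the 6 libraries, among 10298 named genes of at least 5 CPM. These neighbours are a description and say nothing of shared function. For Aqp8 they were Hoxa10 (difference 0.116), Hoxa9 (0.122) and Edn1 (0.128), the first a pair of posterior homeobox genes that mark posterior position along the body axis, and the last the gene for the vasoactive peptide endothelin 1. Hoxa10 stood at 3.79, 9.84 and 9.30 CPM in mutants, against 13.5, 8.49 and 11.7 CPM in controls. Hoxa9 stood at 8.77, 18.4 and 18.0 CPM in mutants, against 26.4, 17.6 and 25.3 CPM in controls. Both were lowest in mutant 1 and highest in control 1, as Aqp8 was, and neither passed the test (adjusted p = 0.291 and adjusted p = 0.197 by edgeR). The position along the colon from which each preparation came is not given in the sources used here, and its part in the Aqp8 values was not tested.

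For Aqp11 the nearest profiles were Dnajc28 (0.0359), a DnaJ family gene, Ahcyl2 (0.08), which encodes a relative of adenosylhomocysteinase that regulates bicarbonate transport, and Hsd17b13 (0.0823), a lipid droplet enzyme gene. All 3 fell, with log2 fold changes of -1.52, -1.47 and -1.36. Dnajc28 stood at 3.48, 3.08 and 2.98 CPM in mutants, against 10.015, 7.92 and 9.36 CPM in controls. For Aqp1 they were Prkg2 (0.0467), which encodes the cyclic GMP-dependent kinase that acts on chloride secretion, the guidance cue gene Slit2 (0.0659) and the autophagy gene Atg14 (0.073), which all fell. Prkg2 stood at 46.7, 31.5 and 42.2 CPM in mutants, against 58.5, 72.0 and 62.1 CPM in controls. For Aqp4 they were Dhcr7 (0.037), the last enzyme of cholesterol synthesis, Skiv2l (0.0377), a helicase of RNA decay, and Fbxl6 (0.0398), an F-box gene. Of these Skiv2l fell, with a log2 fold change of -0.27 (adjusted p = 0.0268 by edgeR), and the others did not pass.

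**Figure D5:**
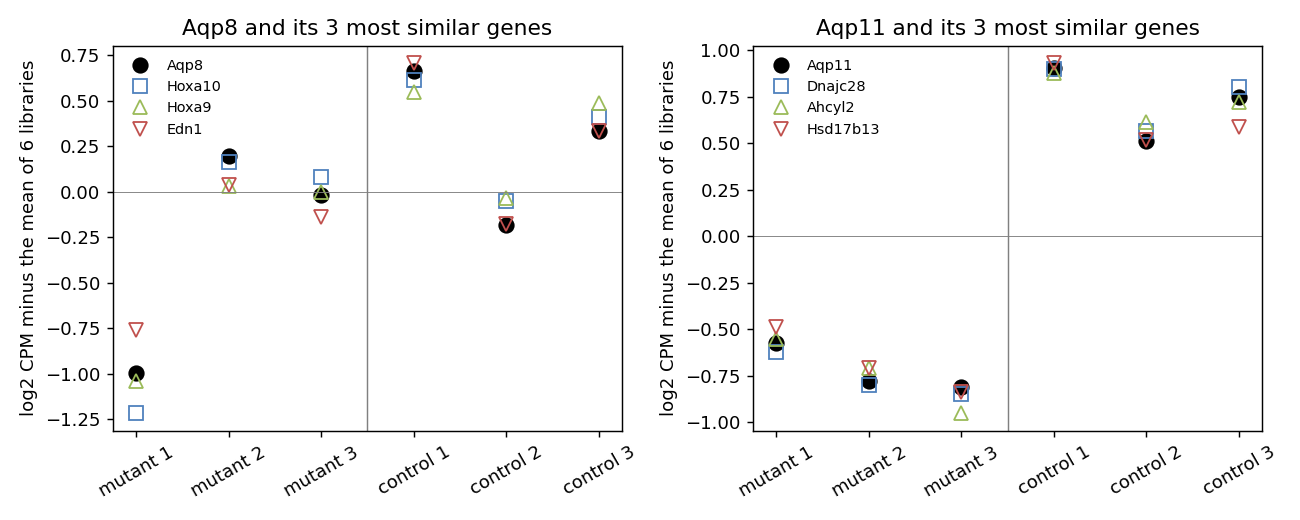
Log2 CPM minus the gene's mean over the 6 libraries (vertical axes) for Aqp8 with Hoxa10, Hoxa9 and Edn1 (left) and for Aqp11 with Dnajc28, Ahcyl2 and Hsd17b13 (right); mutant libraries stand left of the vertical line and control libraries right of it. The Aqp8 profile is lowest in mutant 1 and highest in control 1 and does not separate the groups, whereas all 4 genes on the right are lower in every mutant.

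Salt transport drives the water that passes aquaporins, and genes of salt absorption moved mostly down. Of 26 tested genes 15 fell, 5 rose and 6 had no call, where 23.0% of all tested genes fell and 23.5% rose. Their median log2 fold change was -0.43. The same shares stand beside the lists that follow, and all these lists were chosen with earlier results of these data known. Nr3c2, the mineralocorticoid receptor gene, fell to 76.9 ± 1.85 CPM in mutants, against 152 ± 1.82 CPM in controls, and the bicarbonate cotransporter gene Slc4a7 fell to 135 ± 5.87 CPM, against 254 ± 6.10 CPM. In the other direction, the epithelial sodium channel subunit Scnn1b rose to 21.0 ± 0.513 CPM in mutants, against 11.3 ± 0.483 CPM in controls, and Prss8, a protease that activates this channel, rose to 43.9 ± 1.89 CPM, against 23.3 ± 0.921 CPM (SD, n = 3 each). Slc26a3, the chloride exchanger of colonocytes, was among those that fell. Markers of secretory cells moved in the same libraries: of 14 goblet and deep crypt markers 8 fell and 2 rose, with sums of 13339 to 14539 CPM in mutants and 23590 to 26669 CPM in controls, and the colonocyte sums given above were lower too. Their part in the counts of this and the following lists was not tested.

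Of 17 genes of anion secretion, 8 fell, 1 rose and 8 had no call (median -0.21). Vipr1, a receptor for vasoactive intestinal peptide, had a log2 fold change of -1.18 (adjusted p = 1.75e-06 by edgeR), and Gucy2c, the guanylin receptor gene, one of -0.70 (adjusted p = 5.39e-05 by edgeR). The chloride channel gene Cftr fell as well. Guca2b, the uroguanylin gene, was the one that rose, to 107 ± 24.5 CPM in mutants, against 8.70 ± 0.562 CPM in controls (SD, n = 3 each). Adcy6, an adenylyl cyclase gene held by both this list and that of aquaporin regulators, fell, with a log2 fold change of -0.65.

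Among genes that traffic or regulate aquaporins, 8 of 15 tested fell and 1 rose, with a median of -0.44. Nr3c1, the glucocorticoid receptor gene, fell to 63.0 ± 3.21 CPM in mutants, against 128 ± 6.67 CPM in controls, and Hnf4a, a transcription factor gene of gut and liver epithelium, fell to 460 ± 29.0 CPM, against 723 ± 36.7 CPM (SD, n = 3 each). Msn, which encodes the membrane linker moesin, rose by 0.98 on the log2 scale. Of 15 tested genes of the osmotic stress response 9 fell and 1 rose (median -0.31). They included Nfat5, the transcription factor of hypertonic stress, and Slc5a3, an inositol importer gene with a log2 fold change of -0.97, while the amino acid importer gene Slc38a2 rose.

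Genes for the other solutes of aquaporins were counted too. In glycerol handling 10 of 14 fell and 2 rose (median -0.41): the monoglyceride lipase gene Mgll had a log2 fold change of -1.27 and the glycerol kinase gene Gk one of -0.63. In hydrogen peroxide handling 6 of 18 fell and 4 rose (median -0.056), with Cat, the catalase gene, at 67.6 ± 10.6 CPM in mutants, against 123 ± 18.3 CPM in controls, and the mitochondrial peroxiredoxin gene Prdx3 higher by 0.41 on the log2 scale. With mutant 3 as the only mutant library, and so with spread from the 3 controls alone, the lists gave 15 falls and 7 rises for absorption, 7 and 1 for secretion, 8 and 1 for regulators, 9 and 1 for osmotic stress, 9 and 2 for glycerol, and 6 and 4 for hydrogen peroxide. All lists were chosen with earlier results of these data known and are given as counts, beside 23.0% of tested genes lower and 23.5% higher in mutants.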

How the data were processed

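The deposited files hold raw fragment counts per gene, 1 file per library, with nothing normalized. Whether a library pools animals is not given. The submitters' processing notes name Trim Galore 0.6.5, STAR 2.6.1d and the build GRCm38. Per the file headers, featureCounts 1.6.4 counted read pairs over exons of GENCODE vM25 with the forward strand setting (1). No aquaporin overlapped another gene on its own strand.

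From these counts, edgeR 4.0.16 under R 4.3.3 gave the tests (filterByExpr with a minimum count of 10 and minimum total of 15, TMM, robust quasi-likelihood F test, 2-sided, genotype as the only term). The Benjamini-Hochberg adjustment ran over 18539 genes and calls were made under 0.05. CPM uses TMM-scaled library sizes. TPM was computed from counts and the deposited exon lengths, and is a description. DESeq2 1.42.0 and limma 3.58.1 (voom) were alternatives, with other scalings, filters, thresholds and sets of libraries. The fits were tested on simulated data.

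The members and lists were chosen with earlier results of these data known. Named genes are the 8 aquaporins, Mip, Aqp2, Aqp6 and Aqp12, Mettl14, up to 4 genes with the smallest p from each transport list, up to 2 with the smallest p and the first 2 from each marker list, and the 3 genes nearest in profile. Slc26a3, Cftr, Nfat5, Slc38a2 and Emcn, which this rule does not name, were chosen after their values were seen. Best4, Ahsp and Gif were not matched by name. GENCODE vM21, used for transcripts, is on GRCm38 as well.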

Additional observations from a re-analysis of the deposited data

How the results depend on the processing

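Aqp11 kept its direction and its call in all 18 alternatives (log2 fold change -1.57 to -1.37), and Aqp1 in 17 of 18 (-0.79 to -0.58), the exception being the null of a 1.5-fold change. Under that null 2723 genes passed in place of 8623, with 1700 higher and 1023 lower, and 1 aquaporin in place of 2. Aqp8 was not called in any of 18 (-0.74 to -0.23), and Aqp4 was lower in all and called in 4. Among those 4 was the fit with low-count genes kept, whose p-values are not comparable with the reported ones. Aqp3 changed sign with library totals only (0.028) and without mutant 1 and mutant 2 (0.072), and ran from -0.33 to 0.25 when single libraries were left out, with positive values of 0.18 without control 2, 0.017 without control 3 and 0.25 without mutant 2; the cause was not tested. Without dividing by length, the share of Aqp8 among the 8 genes was 28.9% in mutants and 31.6% in controls, through its short transcript. Aqp4 then stood above Aqp8 in every library. With a replicate block 7541 genes and 2 aquaporins passed. Deviations of same-numbered libraries correlated at -0.12, -0.065 and -0.14, and mutant 1 was nearest to control 3 (0.13). These values show no pairing by number, but they cannot exclude a pairing with small effects on most genes. Depth limits Aqp5, Aqp7 and Aqp9, whose counts lie near the floor of 3. When the list counts were repeated without mutant 1 and mutant 2, an alternative chosen after seeing the data, each list stayed within 1.5 times its count. The median log2 fold change of all tested genes was near 0 in the reported fit, 0.204 with DESeq2 and 0.187 with low-count genes kept. Both alternatives took in 43508 genes in place of 18539, so these medians do not measure a shift of the same genes. Aqp1, Aqp3, Aqp4, Aqp8 and Aqp11 all had slightly lower values in both alternatives than in the reported fit. For Aqp1 the value was -0.73 in both, against -0.70. With library totals only, 4889 genes were higher and 3411 lower, in place of 4358 and 4265.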

Other observations

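The rest of the aquaporin family was at or near the floor of 3 counts in most libraries. Aqp2, the vasopressin-regulated channel of the kidney collecting duct, had 1, 1 and 0 counts in mutants, against 1, 3 and 0 in controls. Aqp6, an intracellular channel of the same kidney duct, had 4, 1 and 17 counts in mutants, against 2, 15 and 3 in controls, so in each group 1 library held most of them. Aqp12, known from acinar cells of the pancreas, had 5, 5 and 3 counts in mutants, against 3, 11 and 2 in controls. Aqp2, Aqp5 and Aqp6 lie next to each other on the plus strand of chromosome 15, between 99579055 and 99605477 on GRCm38, and were scarce together.

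Mip, the water channel of the eye lens (plus strand of chromosome 10, 128225838 to 128231812), had 3, 0 and 38 counts in mutants, against 0, 0 and 0 in controls. The mutant value thus came almost wholly from mutant 3, at 1.04 CPM. The filter on low counts left it untested. Without the filter edgeR gave a log2 fold change of 6.70 (adjusted p = 6.47e-07), a size that rests on 1 library and on controls at 0. The p-values of that fit are not comparable with those of the reported fit.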
